A study of Homo sapiens with 6 samples.

Results

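Renieramycin M (RM) was set against a pair of ecteinascidins, ET-770 and its 2'-N-4''-pyridinecarbonyl derivative ET-770-DR, in U373MG, an established line of human glioblastoma cells. For each gene the log2 change with RM from its own vehicle array was taken, and the mean of the log2 changes with ET-770 and ET-770-DR, each from its own vehicle array, was subtracted. A value above 0 therefore means that a gene stood higher after RM, relative to its vehicle, than after the ecteinascidins. The 8045 genes with a mean log2 signal of 8 or more over the 6 arrays were kept, 43.7% of the 18417 genes that the array names by 1 symbol. Cells were exposed for 24 hours to ET-770 at 4.83 nM, to ET-770-DR at 1.70 nM or to RM at 3.10 nM, each the IC50 of that compound, or to the same volume of dimethyl sulfoxide (DMSO), the solvent. There were 3 experiments, each with 1 DMSO array and 1 compound array, so no arm was replicated. The IC50 values had been determined over a longer treatment than the 24 hours of the arrays. The doses differed, and compound, dose and experiment cannot be told apart in any value given here. The difference was not compared over matched doses, and it is a description of these 6 arrays at each compound's own IC50.

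Ecteinascidins and renieramycins are marine alkaloids built on fused tetrahydroisoquinoline rings. Ecteinascidins, first known from tunicates, bind guanine in the minor groove of DNA, interfere with transcription and leave lesions that the nucleotide excision repair machinery acts on. RM comes from a sponge and has quinones at both ends of its ring system, whereas ET-770 has aromatic rings there and carries a further tetrahydroisoquinoline unit on a sulphur-containing bridge. ET-770-DR keeps that skeleton and differs from ET-770 by the added pyridinecarbonyl group. Quinones can be reduced in cells by NQO1 and related enzymes, and the NRF2 pathway is the usual sensor of such compounds. In glioblastoma cells E2F factors drive entry into S phase, NF-kB drives cytokines such as IL6 and CXCL8, and YAP with TEAD factors drives ANKRD1 and CCN1.

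The cells carried markers of glia. Of 12 astrocytic and glial markers, 9 had a mean signal of 8 or more, with VIM between 12.72 and 13.56 and SOX2 between 10.47 and 12.43 over the 6 arrays, whereas GFAP was between 6.66 and 7.72 and AQP4 between 4.07 and 4.88. None of 6 neuronal, 5 oligodendrocyte and 4 endothelial markers reached 8, and 1 of 6 microglial (CD68) and 1 of 5 epithelial markers (KRT18) did. FABP7 stood highest in the RM experiment, at 12.99 with DMSO and 12.30 with RM, against 8.28 to 11.16 in the other 4 arrays. The median signal over all probes moved from 7.28 (DMSO) to 7.30 (ET-770), from 6.68 (DMSO) to 6.65 (ET-770-DR) and from 6.63 (DMSO) to 6.77 (RM). By this median the RM array differed from its DMSO array by more than in the other experiments. By the median over the genes kept for the comparison it differed by less. That median moved from 9.81 (DMSO) to 9.90 (ET-770), from 9.07 (DMSO) to 9.21 (ET-770-DR) and from 9.33 (DMSO) to 9.31 (RM). Counts of genes moved with the scaling.

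The RM response ran in the same direction as the ecteinascidin response but had fewer genes far above DMSO. Of the 8045 genes, 70 stood at least 2-fold above DMSO with RM, against 251 (ET-770) and 502 (ET-770-DR). At least 2-fold below DMSO were 466 genes with RM, against 459 (ET-770) and 526 (ET-770-DR). With the arrays quantile-normalized the counts above DMSO were 60, 201 and 326 (RM, ET-770, ET-770-DR) and those below were 450, 522 and 629. With each array centred on its median they were 29, 240 and 543 above, and 637, 472 and 502 below. The smaller number above DMSO with RM was found under all 3 scalings, and the order of the counts below DMSO was not.

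Across genes the changes with RM correlated with those of ET-770 at Pearson r = 0.86 and with those of ET-770-DR at 0.81, and the ecteinascidins with each other at 0.92 (n = 8045 genes, which are not independent replicates). Where the mean ecteinascidin change was 1 or more (346 genes), RM had a median change of 0.68, ET-770 of 1.09 and ET-770-DR of 1.27. Where it was -2 or less (126 genes), RM had a median of -1.92, ET-770 of -2.48 and ET-770-DR of -2.37. Those bins were chosen on the ecteinascidin values, which alone draws the RM medians towards 0. Chosen instead on RM, the 70 genes with an RM change of 1 or more had RM, ET-770 and ET-770-DR medians of 1.10, 1.01 and 1.15, and the 59 genes with an RM change of -2 or less had medians of -2.29, -2.80 and -2.67. The genes farthest below DMSO thus lay less far below it with RM even when RM chose them.

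**Figure D1:**
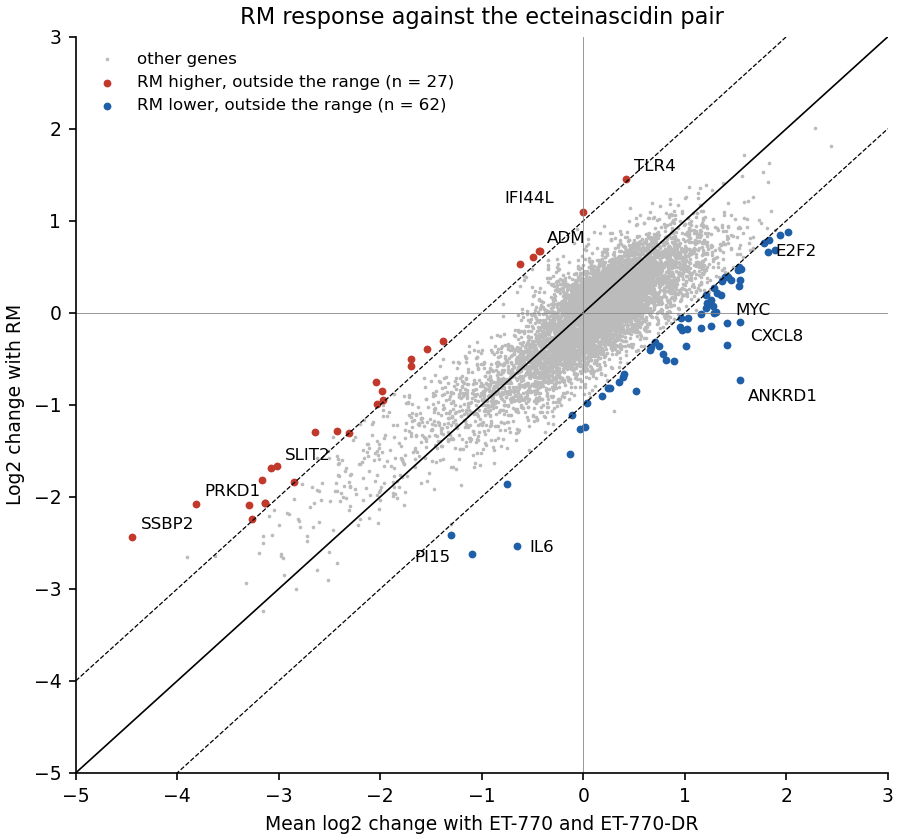
Log2 change with RM (y axis) against the mean log2 change with ET-770 and ET-770-DR (x axis) for 8045 genes, each change from the DMSO array of its own experiment. The solid line marks equal change and the dashed lines a 2-fold difference; 27 genes in red lay above and 62 in blue lay below, farther from the nearer ecteinascidin than the ecteinascidins lay from each other.

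Among these 8045 genes, 31 (0.385%) differed by 2-fold or more with RM higher and 66 (0.82%) with RM lower. Over all 18417 genes, dim ones included, it was 144 (0.782%) and 154 (0.836%). The gap between ET-770 and ET-770-DR is the only spread the design gives for this contrast, so a gene was also required to have an RM change farther from the nearer ecteinascidin than the ecteinascidins were from each other. That left 27 genes with RM higher (0.336%) and 62 with RM lower (0.771%), 30.3% of them higher. Median centring gave 12 higher and 124 lower, or 8.82% higher, and quantile normalization gave 48 higher and 42 lower, or 53.3% higher. A core of 12 higher and 41 lower genes was found under all 3 scalings. The median difference over the 8045 genes was -0.12, and it was -0.26 after median centring and -0.01 after quantile normalization.

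The RM change was below both ecteinascidin changes in 4291 genes (53.3%) and above both in 1987 (24.7%), the background for the gene lists. A limma fit with experiment, treatment and treatment by RM as terms had 1 residual degree of freedom, namely the gap between the ecteinascidins, and assumed that the lone RM pair varies like them. With p-values adjusted over all genes it called 364 genes higher (1.98%) and 318 lower (1.73%). Among the 8045 genes it called 69 higher (0.858%) and 161 lower (2%). All 89 genes outside the ecteinascidin range were among them. The fit used the same difference and the same gap that chose those genes, so this was largely set in advance and is no separate support. The share of genes below both ecteinascidins was 71.6% after median centring and 40.3% after quantile normalization. After quantile normalization limma called 0 of the 8045 genes, and so 0 in every list, although 939 had an unadjusted p under 0.05, compared with 1252 as deposited. These calls compare 2 compounds taken as replicates with 1 RM pair and say nothing of repeated RM treatments.

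The genes with RM lower were of 3 main kinds. In 25 of the 62 both ecteinascidins stood above DMSO and RM did so by less, in 28 RM had the opposite sign to both, and in 4 all stood below DMSO and RM lay farthest. In another 4 the ecteinascidins had unlike signs, and in HELLS the RM and DMSO signals were equal. Of the 27 genes with RM higher, 21 stood below DMSO with all compounds and least so with RM, 4 had the opposite sign with RM, 1 (TLR4) stood above DMSO most with RM and 1 (IFI44L) had ecteinascidin changes of unlike sign. The first 3 numbers were 46, 62 and 7 of 124 lower genes after median centring, and 18, 19 and 2 of 42 after quantile normalization. Below DMSO with all compounds and least so with RM were 11 of 12 and 35 of 48 higher genes.

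Several G1/S cell cycle genes were of the first kind. CDC25A encodes the phosphatase that activates CDK2 and E2F2 is an activating member of the E2F family. CDC25A read 8.08 with DMSO and 8.95 with RM, whereas the ET-770 pair read 8.01 and 9.91 and the ET-770-DR pair 7.26 and 9.39. The DMSO array of the RM experiment was the highest of the 3 DMSO arrays, and the RM array was below both ecteinascidin arrays. This is a 3.72-fold, 4.38-fold and 1.83-fold change, and a difference of -1.14 (limma 95% interval -1.62 to -0.65). E2F2 read 7.84 and 9.77, 7.03 and 8.73, and 7.58 and 8.24 (DMSO before compound; ET-770, ET-770-DR and RM in turn, the order used for the genes that follow), so that its changes were 1.93, 1.70 and 0.66 and its difference -1.15. CCNE1, cyclin E, had changes of 1.51, 1.13 and 0.21, and CCNE2 of 1.73, 1.92 and 0.79. Over the 31 measured genes of the G1/S and E2F list the median change was 0.46, 0.53 and 0.23 and the median difference -0.44, 21 (67.7%) lay below both ecteinascidins, and limma called 8 lower and 0 higher. Median centring put 25 below both and left 4 limma calls, and quantile normalization put 21 below both. CCNA2, TYMS and TK1, which act later or in nucleotide supply, had RM changes of 0.26, -0.01 and 0.56, against 0.03, -0.12 and 0.46 with ET-770-DR. Only ET-770-DR is set beside RM for these genes, so the values do not place them against both ecteinascidins.

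DNA replication genes showed the same order more uniformly. Of 42 genes, 40 lay below both ecteinascidins and 0 above both, 95.2% against 53.3% of all 8045. The median change was 0.12 for RM, against 0.65 (ET-770) and 0.72 (ET-770-DR), with a median difference of -0.55, or -0.45 after quantile normalization. POLD3, an accessory subunit of polymerase delta, read 9.43 and 10.63, 9.09 and 10.38, and 9.65 and 9.75. It was higher than DMSO with both ecteinascidins and nearly level with RM, a difference of -1.14. DNA2, a nuclease and helicase of replication forks, differed by -1.02, with changes of 0.90, 1.03 and -0.06. PRIM1, the catalytic primase subunit, had changes of 1.15, 1.14 and 0.25, and POLE2 of 0.93, 1.10 and 0.08. Limma called 6 of the 42 lower, and 2 after median centring. Below both ecteinascidins were 42 after median centring and 39 after quantile normalization. Of the 346 genes with a mean ecteinascidin change of 1 or more, 318 also lay below both as deposited. A high share was thus not particular to this list, nor to later lists that stood above DMSO with the ecteinascidins. CDC6 and CDT1, which load the MCM helicase at origins, stood 0.83 and 1.01 above DMSO with RM, against 1.67 and 1.73 for the ecteinascidin mean.

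The DMSO arrays contributed to this group. After quantile normalization the DMSO array of the RM experiment stood above the mean of the other DMSO arrays in 38 of the 42 replication genes, by a median of 0.47, while the RM array differed from the mean of the ecteinascidin arrays by a median of 0.01. For this list, then, most of the difference lay between the DMSO arrays rather than between the compound arrays. In the G1/S list the median DMSO gap was 0.05 and the median gap between compound arrays -0.39. Its named genes did not all follow these medians. The DMSO and compound gaps were 0.64 and -0.46 in CDC25A, 0.52 and -0.48 in CCNE1, 0.40 and -0.76 in E2F2, and 0.19 and -0.82 in CCNE2. With the mean of all DMSO arrays as the control, the difference was -0.70 in CDC25A, -0.71 in CCNE1, -1.01 in E2F2 and -0.95 in CCNE2. The part of the DMSO arrays in these results was not tested.

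Sequences before the start of these genes are shown because several of the lower genes carry the same E2F-type octamer. RefSeq windows (GRCh38.p14) of the 250 bases before the gene start were found for 6690 of the 8045 genes, 42 of the 62 lower and 24 of the 27 higher. The octamer TTTGGCGC, searched on both strands, was in 6 lower windows (CASP8AP2, CDC25A, DTL, E2F2, HELLS and MND1; 14.3%), in 1 higher window (RALGAPA2; 4.17%) and in 1.03% of all windows. It is in capitals in the windows of CDC25A (chr3:48188418-48188667, minus strand), E2F2 (chr1:23531234-23531483, minus strand), DTL (chr1:212035498-212035747, plus strand) and HELLS (chr10:94545538-94545787, plus strand), all read 5' to 3' on the gene's strand. In HELLS it is on the other strand and reads GCGCCAAA.
CDC25A: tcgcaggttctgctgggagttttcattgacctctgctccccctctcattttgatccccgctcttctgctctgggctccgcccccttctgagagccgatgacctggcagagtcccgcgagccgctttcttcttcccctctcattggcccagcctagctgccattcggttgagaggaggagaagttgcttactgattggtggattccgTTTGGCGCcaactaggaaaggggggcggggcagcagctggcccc
E2F2: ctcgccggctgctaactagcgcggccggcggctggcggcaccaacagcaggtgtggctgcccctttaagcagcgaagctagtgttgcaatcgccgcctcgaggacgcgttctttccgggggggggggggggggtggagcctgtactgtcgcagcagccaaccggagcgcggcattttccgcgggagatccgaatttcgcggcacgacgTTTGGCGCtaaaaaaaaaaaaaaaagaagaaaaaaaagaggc
DTL: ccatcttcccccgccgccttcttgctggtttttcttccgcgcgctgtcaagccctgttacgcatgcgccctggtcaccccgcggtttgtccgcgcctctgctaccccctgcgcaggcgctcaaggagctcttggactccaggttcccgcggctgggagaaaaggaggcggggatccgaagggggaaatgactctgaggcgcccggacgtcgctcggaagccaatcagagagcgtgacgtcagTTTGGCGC
HELLS: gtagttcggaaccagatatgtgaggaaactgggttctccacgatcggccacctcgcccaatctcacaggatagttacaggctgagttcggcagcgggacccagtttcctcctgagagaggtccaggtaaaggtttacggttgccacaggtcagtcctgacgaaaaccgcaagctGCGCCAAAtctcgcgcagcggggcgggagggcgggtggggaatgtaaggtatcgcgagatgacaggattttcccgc
The octamer lay 44, 42 and 8 bases before the start in CDC25A, E2F2 and DTL, counted to its first base, and 76 in HELLS. DTL, a substrate receptor that targets CDT1 for destruction, had changes of 1.12, 1.19 and -0.17, and HELLS, a chromatin remodeller, of 1.37, 1.21 and 0. After quantile normalization the DMSO gap was -0.64 and the compound gap -1.92 in DTL, against 1.18 and -0.02 in HELLS. The difference in HELLS thus lay in the DMSO arrays.

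In all, 14 motifs were searched after the genes were known, and these matches are a description of letters. The related octamers TTTCCCGC (2.63% of all windows, 3 lower and 1 higher) and TTTGCCGC (0.628%, 0 and 0) can overlap TTTGGCGC on opposite strands. CCAAT was in 22 of the lower (52.4%), 4 of the higher (16.7%) and 36.8% of all windows. TGANTCA was in 4 and 1 (3.45% of all), TGACGTCA in 4 and 1 (3.36%), GGAATG in 4 and 2 (9.01%), TTTGAA in 6 and 3 (8.42%), TATAAA in 1 and 1 (5.04%), TGATGNAA in 0 and 0 (1.27%), ACGTG in 12 and 5 (25%) and GCGTG in 14 and 13 (47.2%). The NF-kB consensus was in 3 and 0 (6.98%) and the CArG box of SRF in 0 and 0 (1.03%).

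Homologous recombination and Fanconi genes, which mend double-strand breaks and crosslinks, also stood lower with RM. Of 29 genes 27 lay below both ecteinascidins, with medians of 0.40, 0.65 and 0.13 and a median difference of -0.46. Below both were 28 after median centring and 24 after quantile normalization. Limma called 4 of them lower, or 2 after median centring, and none was 2-fold lower as deposited. FANCB, of the Fanconi core complex, had changes of 1.23, 1.26 and 0.26 and a difference of -0.99, and MRE11, the nuclease of the break sensor, 0.35, 0.51 and -0.54. BRCA1 differed by -0.89 (limma adjusted p = 0.0339), with changes of 0.40, 0.84 and -0.27. In MRE11 the DMSO array of the RM experiment lay 1.31 above the others, and with the mean of all DMSO arrays as the control its difference turned to 0.17. FANCL, the Fanconi ubiquitin ligase, went from -0.92 to -0.04 with that control. In the nucleotide excision repair list 16 of 22 genes (72.7%) lay below both ecteinascidins and 1 above both, with a median difference of -0.20 and 0 called by limma. The number below both was 21 after median centring and 12 after quantile normalization.

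Several cytokine genes also stood lower with RM. IL6, which encodes a secreted cytokine, read 9.78 with DMSO and 7.24 with RM, whereas the ET-770 pair read 10.22 and 9.003 and the ET-770-DR pair 8.94 and 8.84. The RM array was the lowest of the 6, and its DMSO array lay between the other DMSO arrays. The changes were -1.21, -0.09 and -2.53, and the difference was -1.88 (limma 95% interval -2.46 to -1.30). The ecteinascidin changes of IL6 lay 1.12 apart, the widest such gap among the 62 lower genes. CXCL8, the neutrophil-attracting chemokine, read 8.53 and 9.89, 9.97 and 11.70, and 8.93 and 8.83. It was 2.56-fold and 3.30-fold above DMSO with the ecteinascidins and 0.933 of DMSO with RM, a difference of -1.64. IL18, of the IL1 family, had changes of 0.73, 1.05 and -0.52. CCL2, a monocyte chemokine, was past 2-fold at -1.38 but its ecteinascidin changes of 0.86 and -0.24 were themselves apart. Over 14 NF-kB and cytokine genes the median difference was -0.62, 10 lay below both ecteinascidins (13 after median centring, 9 after quantile normalization) and 4 were at least 2-fold lower. The list median was -0.59 without the ET-770 experiment and -0.50 without the ET-770-DR experiment. The NF-kB subunit RELA and the inhibitor NFKBIA did not share it, with differences of 0.01 (limma 95% interval -0.48 to 0.49) and -0.01 (-0.49 to 0.47).

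ANKRD1, a muscle ankyrin repeat protein and a usual readout of YAP and TEAD, was the gene with the largest difference and the only one with changes of at least 1.5-fold in opposite directions. It read 10.82 and 12.66, 11.09 and 12.34, and 12.40 and 11.67. The DMSO array of the RM experiment was above the other DMSO arrays, and the RM array was below both ecteinascidin arrays. The changes were 3.57-fold and 2.38-fold of DMSO with the ecteinascidins and 0.604 of DMSO with RM, and the difference was -2.27 (limma adjusted p = 6.24e-07), or -0.83 with the mean of all DMSO arrays as the control. Its window (chr10:90921088-90921337, minus strand) is shown for the motifs TGANTCA and GGAATG, in capitals.
ANKRD1: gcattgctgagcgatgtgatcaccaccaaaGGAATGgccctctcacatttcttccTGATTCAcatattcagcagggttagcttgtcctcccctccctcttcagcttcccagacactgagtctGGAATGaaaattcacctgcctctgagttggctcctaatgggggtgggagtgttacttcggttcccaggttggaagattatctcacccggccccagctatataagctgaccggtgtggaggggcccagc
CCN1, a secreted matrix protein also under YAP and serum control, had changes of 1.10, 0.95 and -0.17 and a difference of -1.20, or -0.12 with that control. Over all 22 Hippo pathway genes the median difference was -0.20, and it was -0.02 for YAP1 (limma 95% interval -0.50 to 0.46) and -0.11 for TEAD1 (-0.61 to 0.38).

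MYC, the growth-promoting transcription factor, read 8.91 and 10.47, 9.14 and 10.41, and 9.64 and 9.53. It was above DMSO with both ecteinascidins and level with RM, a difference of -1.53. In the immediate early and AP-1 list the median difference was -0.45, with 12 of 16 below both ecteinascidins (15 after median centring, 11 after quantile normalization). JUNB (1.07, 1.12 and 0.90) and IER2 (0.92, 0.69 and 0.83) stood above DMSO with all 3 compounds. EPHA2, an ephrin receptor, had changes of 0.88, 1.06 and -0.19. GADD45A, a p53-responsive stress gene, stood above DMSO with RM too, by 0.68 against 1.55 and 1.73. Its difference of -0.96 lay in the DMSO arrays (DMSO gap 1.03, compound gap 0.17 after quantile normalization), and it was -0.04 with the mean of all DMSO arrays as the control.

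Ribosome biogenesis factors, which build ribosomes in the nucleolus, lay below both ecteinascidins in 56 of 61 genes, with medians of 0.56, 0.89 and 0.19 and a median difference of -0.57. Below both were 59 after median centring and 53 after quantile normalization, and limma called 6 lower, or 1 after median centring. The members farthest lower were LYAR, a nucleolar growth regulator (changes of 0.72, 1.72 and 0.19, difference -1.03), RRP12, which acts in the export of ribosomal subunits (0.40, 1.01 and -0.32, difference -1.02), and URB2, a nucleolar protein (1.03, 1.23 and 0.15, difference -0.99). In 51 of the 61 genes the DMSO array of the RM experiment stood above the other DMSO arrays, by a median of 0.67 after quantile normalization, and the RM array stood 0.17 above the ecteinascidin arrays. With the mean of all DMSO arrays as the control the median difference was -0.06, and LYAR turned to 0.76. RPF2 and PUM3 are related genes outside the list and were among the 12 largest differences with RM lower. RPF2, a ribosome assembly factor, read 10.06 and 10.24, 10.31 and 11.17, and 11.04 and 10.19, a difference of -1.36 (-0.51 with that control). PUM3, a nucleolar RNA-binding protein, differed by -1.33 and turned to 0.55.

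Stress genes that ATF4 controls had a median difference of -0.49, with 22 of 25 below both ecteinascidins (23 and 20 after median centring and quantile normalization). TRIB3, a pseudokinase of that pathway, had changes of 1.09, 0.90 and 0.20, and SLC7A1, a cationic amino acid transporter, -0.01, 0.14 and -0.92. The tRNA synthetases had a median difference of -0.38 (23 of 30 below both, and 25 and 20 under those scalings), led by YARS1 at -1.06, and the p53 targets one of -0.36 (16 of 23, and 18 and 15), led by AEN, a p53-induced nuclease, at -1.10. CDKN1A and MDM2, the best known p53 targets, differed by -0.27 (limma 95% interval -0.76 to 0.21) and -0.31 (-0.79 to 0.17).

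**Figure D2:**
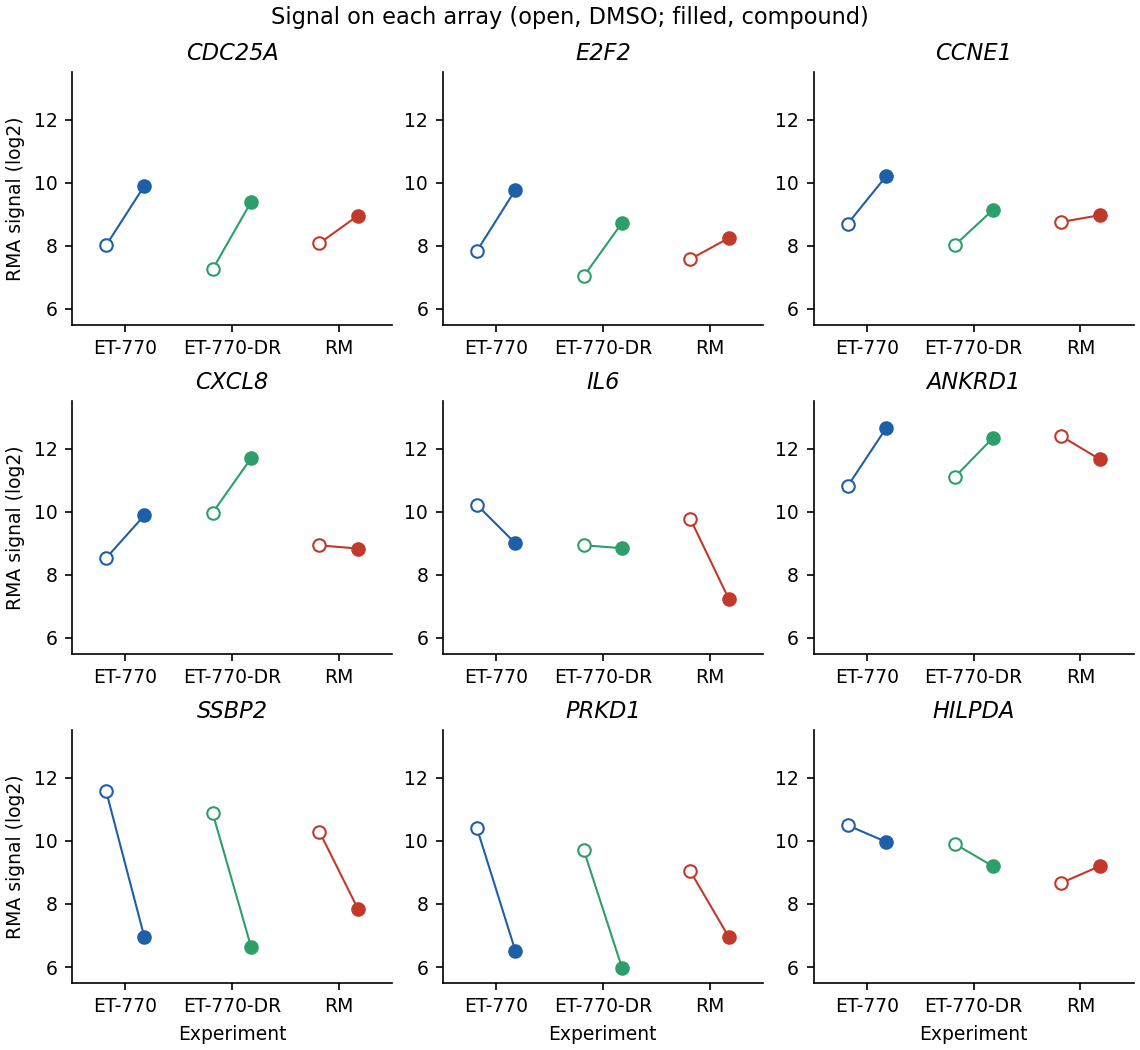
RMA signal (log2, y axis) of 9 genes on each of the 6 arrays, grouped by experiment (x axis), with the DMSO array as an open point joined to the compound array as a filled point; there is 1 array per point and no error can be drawn. CDC25A has a shallower slope in the RM experiment, CXCL8 is nearly level there, ANKRD1 slopes the other way, and SSBP2 and PRKD1 slope down less far.

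The genes with RM higher were mostly genes far below DMSO with both ecteinascidins. SSBP2, a single-stranded DNA-binding protein, read 11.58 and 6.94, 10.87 and 6.63, and 10.29 and 7.85. It was at 0.0400, 0.0528 and 0.184 of DMSO, a difference of 2.00 (limma 95% interval 1.51 to 2.50). PRKD1, protein kinase D1, read 10.40 and 6.51, 9.72 and 5.97, and 9.04 and 6.96, a difference of 1.74, or 0.71 with the mean of all DMSO arrays as the control. In both genes the DMSO array of the RM experiment was the lowest DMSO array and the RM array the highest compound array. XRCC4, the ligase partner of end joining, had DMSO signals close together (9.62, 9.70 and 9.71) and compound signals of 6.38, 6.59 and 7.89, a difference of 1.35. SLIT2, a guidance ligand, and its receptor ROBO1 differed by 1.35 and 1.01, with changes of -2.91, -3.13 and -1.67 for the ligand. CASK, a synaptic scaffold kinase, had changes of -3.17, -3.42 and -2.09 and NCOA1, a nuclear receptor coactivator, of -3.35, -2.80 and -1.69. All of these remained below DMSO with RM.

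Adhesion genes of synapses and neurons had median changes of -2.03, -1.76 and -1.90 and a median difference of 0.43. With RM 11 of 13 lay above both ecteinascidins (10 after median centring, 12 after quantile normalization), against 24.7% of all genes. Other genes far below DMSO did so too. They were 108 of the 126 with a mean ecteinascidin change of -2 or less, and 203 of the 351 between -2 and -1. A high share was thus not particular to this list. PTPRZ1, a receptor phosphatase of glial cells, read 10.66 and 7.38, 9.55 and 5.03, and 9.59 and 6.93. Its changes of -3.28 and -4.53 with the ecteinascidins were farther apart than RM (-2.66) was from the nearer, so it is not counted among the 27. With the mean of all DMSO arrays as the control, the median difference of this list turned to -0.28. Axon guidance genes had a median difference of 0.16, or -0.01 with that control.

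The span of the gene, from first to last base in RefSeq, differed between the directions. The 27 higher genes had a median span of 216 kb and 20 of them lay in the longest of 5 equal bins, whereas the 62 lower genes had a median of 31.7 kb, with 5 in that bin, and all genes 28.5 kb. In the longest bin, with a median span of 125 kb, the median change was -0.65 for RM, against -0.53 (ET-770) and -0.47 (ET-770-DR). The median difference was 0.00 in the shortest bin, -0.22 in the fourth and -0.08 in the longest, against -0.12 over all genes. After quantile normalization it was 0.05 in the longest bin, against -0.01 over all genes, and after median centring -0.22 against -0.26. The longest bin held 11 of 12 higher and 19 of 124 lower genes after median centring, and 34 of 48 and 2 of 42 after quantile normalization. The long genes among the 27 had low compound signals, down to 5.97 in PRKD1, and the part of low signal in the difference was not tested.

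**Figure D3:**
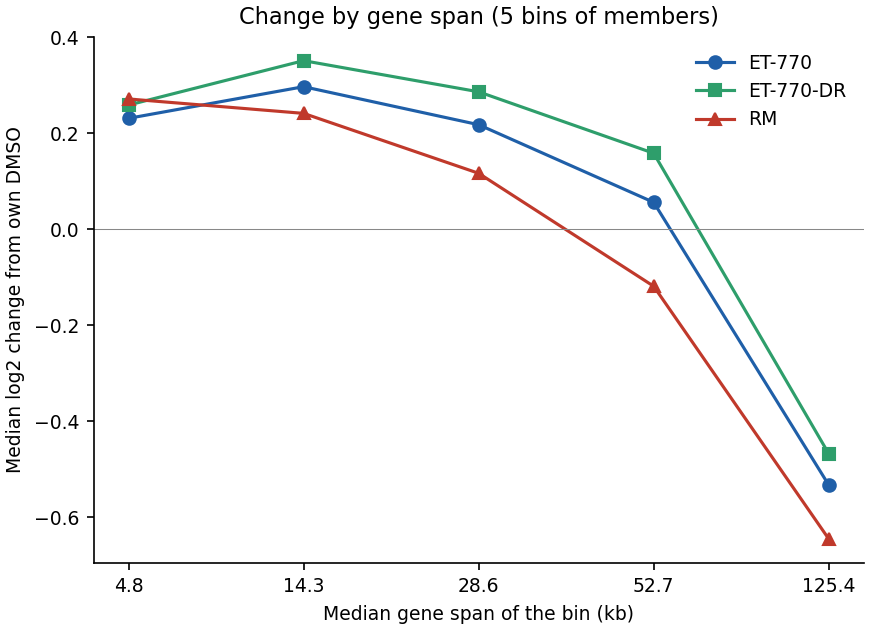
Median log2 change from DMSO (y axis) in 5 bins of about 1608 genes by gene span (x axis, labelled with the bin's median span in kb, evenly spaced) for RM (triangles), ET-770 (circles) and ET-770-DR (squares). All 3 lines run from 0.23 to 0.27 in the shortest bin to between -0.47 and -0.65 in the longest, with RM the lowest from the second bin on.

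ADM and HILPDA, known for their induction in hypoxia, stood above DMSO with RM and below it with the ecteinascidins. ADM, a vasodilator peptide, read 11.03 and 10.45, 10.25 and 9.95, and 9.58 and 10.25. HILPDA, a lipid droplet protein, read 10.49 and 9.96, 9.91 and 9.19, and 8.66 and 9.20. In both genes the compound signals lay close together or overlapped, and the DMSO array of the RM experiment was the lowest of the 3. The differences were 1.11 and 1.15, and 0.05 and -0.38 with the mean of all DMSO arrays as the control. CA12, a carbonic anhydrase, stood below DMSO with all 3 compounds, with changes of -1.20, -1.56 and -0.30 and a difference of 1.08, and had its DMSO array 1.98 below the others after quantile normalization. Across 33 hypoxia and glycolysis genes the median difference was only 0.05, and VEGFA (-0.59, -0.79 and -0.65) and PDK1 (-1.05, -1.16 and -1.37) stood below DMSO with all 3 compounds.

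TLR4, the lipopolysaccharide receptor, read 10.96 and 11.48, 10.25 and 10.57, and 9.42 and 10.87, with a difference of 1.03. Its RM array lay between the ecteinascidin arrays. The interferon-induced genes IFI44L, IFIT1 and IFI27 differed by 1.10, 0.85 and 0.87, but their DMSO signals in the RM experiment were far below the others. IFI44L read 12.75 and 12.56, 11.44 and 11.62, and 7.85 and 8.94. Over 35 interferon genes the DMSO array of the RM experiment stood a median of 1.59 below the other DMSO arrays, and the median difference was 0.01. With the mean of all DMSO arrays as the control the values of IFI44L, IFIT1 and IFI27 turned to -3.15, -1.65 and -3.30.

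In the NRF2 list, which holds the usual quinone response genes, no gene passed limma. Over 32 NRF2 and quinone response genes the median change was 0.02 for RM, against 0.09 (ET-770) and 0.20 (ET-770-DR), and the median difference was -0.20 against -0.12 over all genes. Below both ecteinascidins were 22 (68.8%) and above both 5, against 53.3% and 24.7% of all genes. The number below both was 24 after median centring and 16 (50%) after quantile normalization. With the mean of all DMSO arrays as the control the list median was 0.01. NQO1, the quinone reductase, read 13.26 and 13.32, 12.66 and 12.72, and 12.90 and 12.77, near the top of the scale on every array. Its difference was -0.20 with a limma 95% interval of -0.68 to 0.28, which leaves room for a moderate difference either way. HMOX1, haem oxygenase, differed by -0.20 (-0.69 to 0.28) and TXNRD1, thioredoxin reductase, by -0.48 (-0.98 to 0.01). The 3 largest differences ran both ways. OSGIN1, an oxidative stress growth inhibitor, had changes of 0.07, 0.14 and 0.88 and a difference of 0.78 (limma adjusted p = 0.0557). SESN2, a stress-induced sestrin, had changes of 1.62, 1.41 and 0.83 and a difference of -0.69, and TKT, the transketolase of the pentose phosphate pathway, -0.50, -0.83 and -1.30 and a difference of -0.64 (limma adjusted p = 0.100 and 0.132).

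Mitotic genes also differed little as a list. Their median difference was -0.01 over 47 genes, with 18 below and 17 above both ecteinascidins (26 and 11 after median centring, 13 and 28 after quantile normalization), and CDK1 differed by 0.05 (limma 95% interval -0.43 to 0.54). Proteasome (-0.16), mitochondrial ribosome (-0.13), heat shock (-0.13), BCL2 family and caspases (-0.12), replicative histones (-0.07), lysosome and autophagy (-0.02), cholesterol synthesis (-0.02), focal adhesion and integrins (-0.02), respiratory chain (-0.02), ER chaperones (0.03), metallothioneins (0.07) and extracellular matrix (0.08) had medians between -0.16 and 0.08, and several of those nearest 0 changed sign with the scaling. In POLR2A, the large subunit of RNA polymerase II, the changes were 1.00, 0.96 and 1.11. The ERK feedback list (-0.23) and the RNA polymerase list (-0.21) lay a little below the median of all genes.

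**Figure D4:**
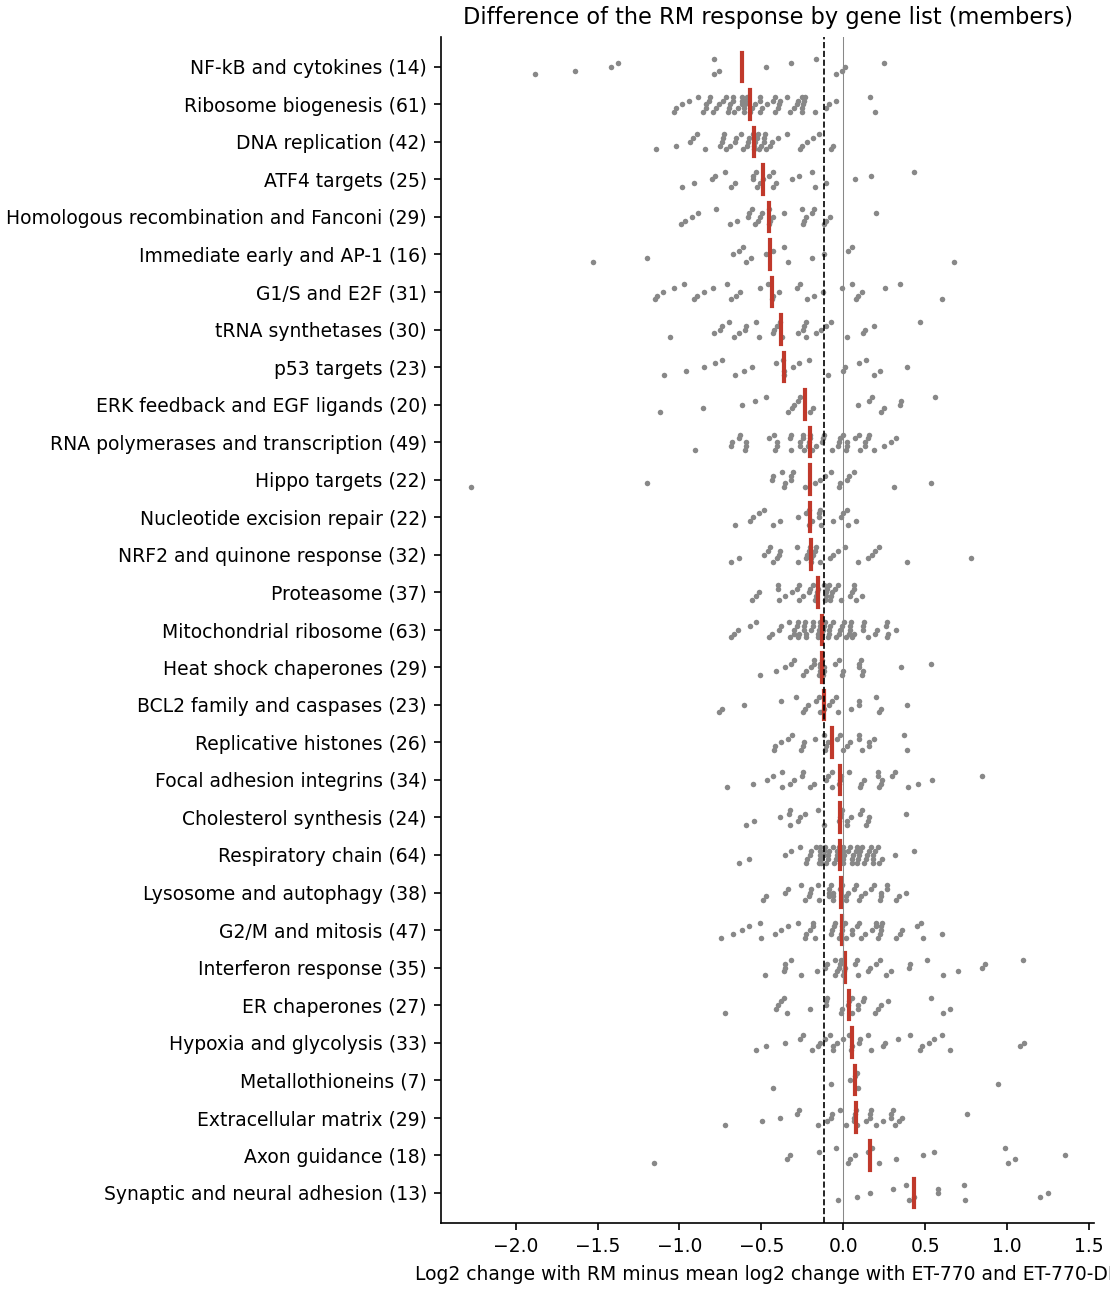
Difference of the log2 change with RM from the mean of the ecteinascidin changes (x axis) for the members of 31 gene lists (y axis, number of genes in parentheses); grey points are genes, red bars list medians, and the dashed line the median of all 8045 genes at -0.12. NF-kB and cytokines (-0.62) and synaptic and neural adhesion (0.43) are the ends of the range of medians as deposited.

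The difference can be split into the gap between compound arrays and the gap between DMSO arrays. After quantile normalization the RM array lay on the called side of the mean ecteinascidin array in 52 of the 62 lower and 21 of the 27 higher genes. The DMSO array of the RM experiment lay on the other side in 43 and 23. The gap between the compound arrays was the larger one in 35 of 62 and in 13 of 27. In MNS1, a cilia protein (DMSO gap -0.07, compound gap -1.71), IL18 (0.01 and -1.27), IL6 (0.28 and -1.46) and XRCC4 (0.15 and 1.61) nearly all of the difference lay in the compound arrays. In GTF2F2, a subunit of TFIIF (1.46 and 0.11), and CCN1 (1.17 and 0.09) it lay in the DMSO arrays.

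**Figure D5:**
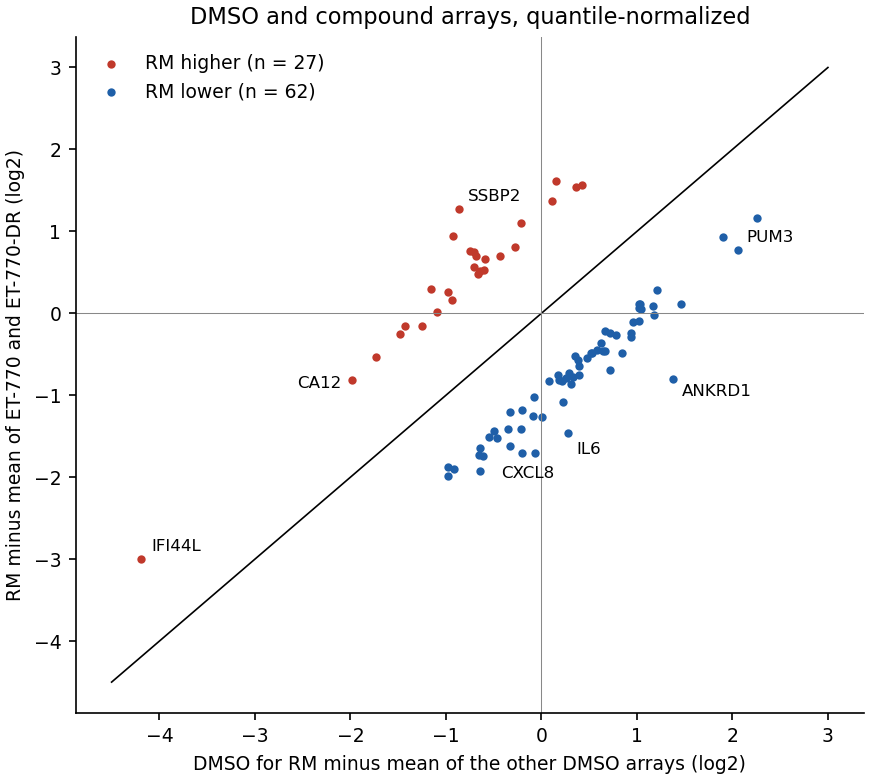
For the 27 higher (red) and 62 lower (blue) genes, the RM array minus the mean of the ecteinascidin arrays (y axis, log2) against the DMSO array of the RM experiment minus the mean of the other DMSO arrays (x axis, log2), both after quantile normalization; the diagonal marks no difference. Points near the vertical axis, such as IL6 and CXCL8, differ in the compound arrays, and IFI44L lies far out with a DMSO gap of -4.19.

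Probes of the same gene were also compared within these arrays. Of 323 genes read by probes with distinct values, every probe had the same sign of difference in 235 (72.8%). Of the 89 genes outside the range, 3 had several probes, and all probes of each had the same sign. The gene value is the mean of its probes, so that agreement is partly built in and is no separate support. For CLSPN, a checkpoint mediator at forks, the probes gave -1.02 and -1.01, and for RPF2 -1.57 and -1.15. For NRG1, a growth factor of the EGF family, they gave -1.52 and -0.72, so that 1 of its probes fell short of a 2-fold difference.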

How the data were processed

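RNA from U373MG cells was collected 24 hours into treatment with DMSO, ET-770, ET-770-DR or RM and hybridised to 6 Affymetrix Human Gene 1.0 ST arrays. The authors summarised the scans as log2 signals by robust multiarray averaging (RMA) in Expression Console, and deposited them for 33297 probes. Which arrays were normalized together is not given in the sources used here. The number of arrays, 1 per arm, limits the precision. Arrays were grouped by their labels, and each compound array was paired with its experiment's DMSO array. Probes with 1 gene symbol (19460) were averaged per gene, and those with several symbols (1754) or none (12083) were left out. Gene symbols came from the platform annotation, and 18389 of 18417 genes were matched to RefSeq (GRCh38.p14) for current names and gene span. Members were genes with a mean log2 signal of 8 or more. Beyond the differences themselves, limma 3.58.1 in R 4.3.3 was fitted to all genes (experiment, treatment and treatment by RM, eBayes without trend, prior degrees of freedom 34.5, Benjamini-Hochberg threshold 0.05, two-sided). The code was tested on simulated data. The fit treats ET-770 and ET-770-DR as replicates, which they are not.

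Genes named were the 12 largest differences each way among those outside the ecteinascidin range, the 3 largest of each of 31 lists and those of opposite change; others were named after their values were seen. The members, lists and motifs were chosen with earlier results of these data known. Alternatives tried were median centring, quantile normalization, the mean of the DMSO arrays as control, the brightest probe, signal filters of 7, 9 and none, other fold thresholds, eBayes with trend, no replicate block, and leaving out either ecteinascidin experiment.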

Additional observations from a re-analysis of the deposited data

Results flagged for a closer look

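In 55 of 108 named genes the RM effect differed from the ecteinascidin effect by the limma term for treatment by RM. That term takes the gap between ET-770 and ET-770-DR as its error. The named genes were chosen for the size of this same difference, so a high share was set in advance. Among all 8045 genes limma called 69 higher (0.858%) and 161 lower (2%). Quantile normalization left 0 of these 55 past the threshold, with a lowest limma adjusted p of 0.0522.

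Among growth and inflammation genes the log2 difference was -2.27 in ANKRD1, -1.88 in IL6, -1.64 in CXCL8, -1.53 in MYC, -1.42 in IL18, -1.20 in CCN1, -1.16 in EPHA2, -1.12 in NRG1 and -0.86 in DUSP10. In cell cycle, replication and repair genes it was -1.15 in E2F2, -1.14 in POLD3, -1.14 in CDC25A, -1.10 in CCNE1, -1.02 in DNA2, -0.99 in FANCB, -0.97 in MRE11, -0.94 in POLE2 and -0.92 in FANCL. The meiotic genes MNS1 and MND1 differed by -1.77 and -1.37.

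In nucleolar and transcription genes it was -1.41 in GTF2F2, -1.36 in RPF2, -1.33 in PUM3, -1.03 in LYAR, -1.02 in RRP12, -0.99 in URB2 and -0.90 in POLR1E. In stress genes it was -1.10 in AEN, -1.06 in YARS1, -0.99 in SLC7A1, -0.96 in GADD45A and -0.91 in STC2. PI15 differed by -1.53 and IQCB1 by -1.40.

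RM was higher by 2.00 in SSBP2, 1.74 in PRKD1, 1.38 in NCOA1, 1.35 in LDLRAD3, 1.35 in XRCC4, 1.35 in SLIT2, 1.29 in SYTL5, 1.25 in PTPRZ1, 1.20 in ANTXR2 and 1.20 in CASK. It was higher by 1.15 in HILPDA, 1.15 in XPR1, 1.15 in FAM117B, 1.11 in ADM, 1.10 in IFI44L, 1.08 in CA12, 1.05 in SRGAP2, 0.94 in MT3, 0.87 in IFI27, 0.85 in IFIT1 and 0.85 in ITGA2. Changes of at least 1.5-fold in opposite directions were seen in 1 gene, ANKRD1, and that call was not tested.

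Probes left out of the comparison held such values too. Of 746 probes with several symbols and a mean signal of 8 or more, 2 lay outside the ecteinascidin range with RM higher and 5 with RM lower. Of 2562 such probes with no symbol, 12 lay higher and 30 lower. Among the 8045 genes it was 27 higher (0.336%) and 62 lower (0.771%), and a difference from those shares was not tested.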

How the results depend on the processing

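The numbers of genes past a threshold depended on the scale of the arrays, the control and the filter. Differences of 2-fold or more numbered 31 higher and 66 lower as deposited, 13 and 131 with median centring, and 51 and 44 with quantile normalization. They numbered 377 and 1181 with 1 mean DMSO control for all compounds, 6 and 36 at a mean signal of 9 or more, and 144 and 154 with no filter. A mean signal of 7 or more gave 63 higher. A threshold of 1.5-fold gave 183 and 602, and one of 3-fold 2 and 4. Outside the ecteinascidin range were 12 and 124 with median centring, 256 and 877 with the mean DMSO control, 6 and 34 at a signal of 9 or more and 123 and 136 with no filter; quantile normalization gave 48 higher and a signal of 7 or more 58 higher. The higher set under median centring held 12 of the 27 and the lower set all 62; after quantile normalization 27 of 27 and 41 of 62 were shared. The share of higher genes moved accordingly, from 9.03% to 53.7% of the 2-fold differences between median centring and quantile normalization. Limma called 4 higher and 70 lower members with median centring, 0 and 0 with quantile normalization (939 at an unadjusted p under 0.05), 108 and 367 with a variance trend, 17 and 90 at a signal of 9 or more, 364 and 318 with no filter, and 140 higher at a signal of 7 or more. Opposite changes were found in 1 gene as deposited, in 2 with median centring and in 92 with the mean DMSO control.

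Leaving out 1 ecteinascidin experiment gave 45 to 46 higher and 49 to 156 lower differences of 2-fold or more; without the ET-770 experiment 156 genes were lower, and without the ET-770-DR experiment 49. No range and no residual degree of freedom was left then, so neither the range nor limma had a value, and a named gene that lies beyond both ecteinascidins keeps its sign by construction. Without the replicate block, which drops the pairing of each compound with its DMSO array, limma called 5 higher and 25 lower members, against 69 and 161. The pairing comes from the labels. With that mean DMSO control, and so no pairing, the difference turned to -1.04 in CA12, -0.74 in FAM117B, -0.38 in HILPDA, -3.30 in IFI27, -3.15 in IFI44L, -1.65 in IFIT1, -0.62 in ITGA2, 0.76 in LYAR, 0.17 in MRE11 and 0.55 in PUM3. Of the 55 named genes that limma called, these 10 changed sign, 9 kept it at under 0.25 of their size (ADM, CCN1, FANCL, GADD45A, GTF2F2, LDLRAD3, MT3, POLR1E and SRGAP2), 8 lay between 0.25 and 0.5 of it and 28 at 0.5 or more. The list medians turned to -0.0093 for axon guidance and -0.28 for synaptic and neural adhesion. The cause was not tested. Of the 53 named genes that limma did not call, another 24 changed sign with that control, and MT1X (0.09 as deposited) did so with median centring and without the ET-770-DR experiment. Of 31 list medians, 12 changed sign with the mean DMSO control, 5 with median centring, 6 with quantile normalization, 3 without the ET-770 experiment and 6 without the ET-770-DR experiment. Outside the mean DMSO control these were lists with medians between -0.07 and 0.08, which have no settled sign.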

Other observations

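Among the 62 genes with RM lower, 4 (6.45%) had a ZNF symbol, the prefix of zinc finger genes, as did 210 (2.61%) of the 8045 genes, whose median difference was -0.27. All 4 stood above DMSO with every compound. The changes with ET-770, ET-770-DR and RM were 1.18, 1.89 and 0.29 in ZNF814, 1.24, 1.84 and 0.35 in ZNF583, 0.93, 1.59 and 0.14 in ZNF724, and 1.24, 1.55 and 0.39 in ZNF93. Another 3 (4.84%) had a SNORD symbol, as did 38 (0.472%) of the 8045. The 3 were SNORD28, SNORD79 and SNORD49A, small nucleolar RNAs that guide chemical marks on ribosomal RNA. Their RM changes were 0.48, 0.47 and 0.20. The ET-770 changes were 1.45, 1.44 and 1.09, and those of ET-770-DR 1.65, 1.60 and 1.32. After quantile normalization the DMSO and compound gaps were 0.62 and -0.37 in SNORD28, 1.05 and 0.05 in SNORD79, and 1.91 and 0.93 in SNORD49A. The difference in SNORD79 and SNORD49A thus lay in the DMSO arrays. With the mean of all DMSO arrays as the control, the differences were -0.54, -0.18 and 0.70 in turn.

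Genes of the lower set that are in none of the lists included CD274, NCR3LG1 and TIFA. CD274, the checkpoint ligand PD-L1, read 8.73 and 10.01, 8.10 and 9.40, and 7.70 and 7.97, DMSO before compound in the ET-770, ET-770-DR and RM experiments. Its difference was -1.02. NCR3LG1, the ligand of the natural killer cell receptor NKp30, had changes of 1.91, 1.97 and 0.84. TIFA, an adaptor in NF-kB signalling, had changes of 1.52, 1.55 and 0.49. These genes were named after their values were seen.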
